A study of Drosophila melanogaster with 48 samples.

Results

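Brains of male and female flies that carry the W422X change in Naglu were compared by RNA sequencing. Naglu encodes the lysosomal enzyme that removes N-acetylglucosamine from heparan sulfate, and loss of the human enzyme causes mucopolysaccharidosis IIIB. The comparison used the 12 libraries labelled W422X, out of 48 in the series, and took 6 male against 6 female libraries with the age week as a block. There were 3 libraries in each of the groups W422X female week 0, W422X female week 3, W422X male week 0 and W422X male week 3. Each library came from 20 pooled brains, was depleted of ribosomal RNA and carries the genotype label NAGLU W422X, in which X by the usual notation stands for a stop codon. All 12 libraries share that genotype, so the comparison within W422X holds no control genotype. The 36 other libraries came from NAGLU KO, NAGLU Y160C and WG2 flies of the same sexes and ages, and WG2 is the genotype whose label names no NAGLU change. The labels do not say how the W422X allele was made, on which background, or whether the flies were homozygous. The labels do not tie replicates to separate cultures, and the p-values therefore measure only the variation among these pools of brains, which may be technical.

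In flies, sex is read from the number of X chromosomes. The RNA-binding protein Sxl is made in females, where it directs splicing of tra and blocks production of msl-2. In males the msl-2 protein assembles with the noncoding RNAs roX1 and roX2 and with msl-1, msl-3, mof and mle into a complex that binds the single X and raises its transcription, which is called dosage compensation. Further down the cascade, tra sets the sex-specific splicing of dsx and fru, and dsx switches on the yolk protein genes in the female fat body.

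Naglu (FBgn0014417, on 2L) did not pass the test for a sex difference. Its level ran from 4.59 to 9.13 CPM (the gene's reads relative to its library's scaled total) in the 6 female libraries and from 5.28 to 8.38 CPM in the 6 male libraries. The ranges overlapped, with a log2 fold change of -0.02 ± 0.12 (SE; males minus females, adjusted p 0.958). All log2 fold changes here have that direction, and all adjusted p-values are Benjamini-Hochberg values of edgeR's quasi-likelihood test over 12148 genes unless another tool is named. In libraries of whole brains, fewer cells of a type and less RNA per cell cannot be told apart.

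Total counts of the 12 libraries ran from 14010548 to 24108600. The library W422X female week 3 replicate 1 stood apart. It had 1.44% of its counts in 5957 genes that are usually silent in the series (median under 0.5 CPM over the 48 libraries), while the other 11 had 0.0475% to 0.220%. Its median correlation with the other libraries was 0.895, against at least 0.968 for the rest. The cause was not tested. Main results of the 12 libraries are given with and without this library, while the comparisons with other genotypes are given only with it. Over the series, 9 libraries had over 0.4% of their counts in these genes, and they came from every genotype. Markers of neurons (elav, brp, nSyb) and glia (repo, moody) were present in every library. Of the markers of other tissues, He of haemocytes and SP, Mst84Da and Mst87F of the male reproductive tract stayed under 1 CPM in every library. Others of the same lists did not: bol of the male reproductive tract ran from 560.5 to 827.9 CPM and Pxn of haemocytes from 164 to 380 CPM. In the ovary list, orb ran from 208 to 280.5 CPM. The summed level of 6 muscle markers was 230.9 CPM in the female library that stood apart, against a female median of 15.6 CPM and at most 45.8 CPM in males.

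Of 12148 genes tested, 138 (1.14%) were called at an adjusted p under 0.05. Of these, 60 (0.494%) were higher in males and 78 (0.642%) were higher in females. This split depended on the fit: with the replicate number as a block it was 85 and 61, without the 3 libraries with over 0.1% of counts in usually silent genes 85 and 80, and with no filter on low counts 40 and 39. The differences were mostly small, with 71 of the 138 under 1.5-fold and 38 at 2-fold or more. The median log2 fold change over all genes was -0.04. Without the female week 3 replicate 1 library, 255 genes were called, 109 higher in males and 146 in females, and these included 136 of the 138. Dropping any other library in turn gave 64 to 206 calls, with the lowest counts without male week 3 replicate 3 (64), female week 0 replicate 2 (65), female week 3 replicate 2 (72), male week 3 replicate 1 (76) and female week 0 replicate 3 (78), and the highest without female week 3 replicate 3 (206). The levels of 93 of the 138 genes did not overlap between the sexes (37 higher in males, 56 in females), which their selection on these same libraries favours. Over all tested genes the share with non-overlapping sexes was 1.64%.

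**Figure D1:**
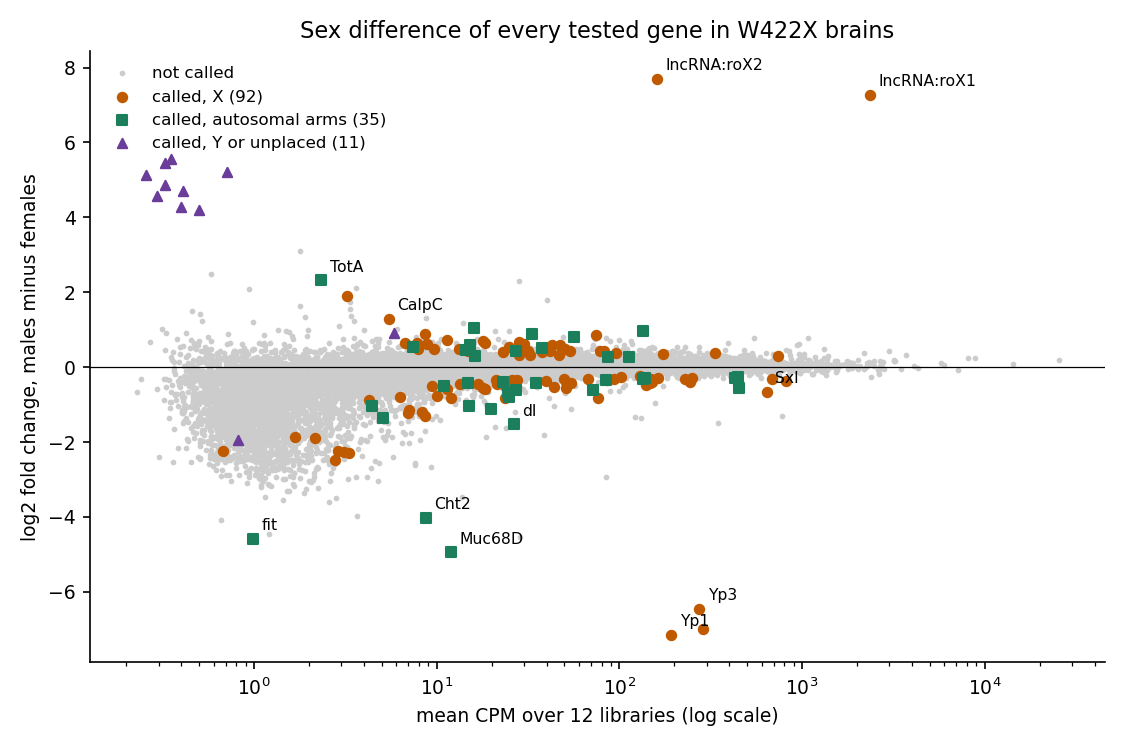
Log2 fold change (males minus females, vertical axis) against mean level over 12 libraries (CPM, log axis) for the 12148 tested genes. Grey points are genes not called, circles are the 92 called X genes, squares the 35 called genes of the autosomal arms and triangles the 11 called genes of the Y or of sequence outside the main arms. The roX genes lie at the top, the yolk protein genes at the bottom, and most other called genes lie close to 0. Many grey points of low level lie below 0.

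The genes with the largest male excess were the RNAs of the dosage compensation complex. roX1 (lncRNA:roX1, FBgn0019661, X:3857230-3862697 in BDGP6.54) ran from 20.9 to 49.1 CPM in females with a median of 27.7, and from 4486 to 5229 CPM in males with a median of 4555. The lowest male library lay far above the highest female library, and the log2 fold change was 7.28 ± 0.18 (adjusted p 1.85e-10). roX2 (lncRNA:roX2, X:11579065-11580432) ran from 0.631 to 4.43 CPM in females and from 283 to 361 CPM in males, with medians of 1.05 and 319 CPM. Again the sexes did not overlap, and the log2 fold change was 7.71 ± 0.32 (adjusted p 1.98e-07). The highest female value of roX2 was in the library that stood apart, and without it the log2 fold change was 8.26.

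Among the protein subunits, msl-2 alone was called. msl-2 (FBgn0005616, on 2L) ran from 72.8 to 84.0 CPM in females (median 79.3) and from 86.3 to 101 CPM in males (median 96.1). Every male library was above every female library, by a log2 fold change of 0.27 ± 0.05 (adjusted p 0.0243). This call was lost in 8 of 20 alternative settings, with adjusted p-values up to 0.153, among them the fit of all 48 libraries and the fit with no filter on low counts. The other 8 members of the dosage compensation list did not pass the test. msl-1 had a log2 fold change of -0.10 ± 0.06, mof of -0.09 ± 0.07, msl-3 of -0.03 ± 0.07 and mle, the helicase of the complex, of 0.05 ± 0.06. Clamp, which binds the sequence at which the complex enters the X, had 0.02 ± 0.08, and the kinase JIL-1 had -0.07 ± 0.04. In all, 3 of the 11 measured members were called, all higher in males, and the list's median log2 fold change was 0.01 against -0.04 over all genes.

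The yolk protein genes gave the largest female-high values. Yp1 (FBgn0004045, X:10053811-10055498) ran from 247 to 463 CPM in females with a median of 394, and from 0.869 to 6.82 CPM in males with a median of 2.44. Yp2 (X:10050951-10052636), its neighbour, ran from 349 to 718 CPM in females and from 1.22 to 11.8 CPM in males. Yp3 (X:13759546-13761547) ran from 390 to 779 CPM in females and from 1.51 to 12.6 CPM in males. No male library came near a female library for any of the 3 genes. The log2 fold changes were -7.14 ± 0.37 for Yp1 (adjusted p 1.26e-06), -7.00 ± 0.43 for Yp2 (8.89e-06) and -6.45 ± 0.42 for Yp3 (1.35e-05).

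fit, which encodes a secreted peptide of the female fat body, was low in both sexes. It ran from 0.379 to 3.59 CPM in females and from 0 to 0.154 CPM in males. The sexes did not overlap, and the fitted log2 fold change of -4.58 ± 0.71 (adjusted p 0.00797) rests on a few reads per male library. Its exons overlap those of asRNA:CR45046 on the same strand and of CG31465 on the opposite strand, and reads from the shared stretches cannot be assigned to one of them. yl, the yolk protein receptor of the oocyte, was not called (log2 fold change -1.02 ± 0.91). Of this list 4 of 5 members were called, all higher in females. The fat body markers apolpp and FASN1 had female medians of 892 and 661 CPM and male medians of 919 and 624 CPM, and neither was called. Lsp2, a storage protein of the fat body, reached at most 1.15 CPM. The summed level of the 8 fat body markers, which include the yolk protein genes, was 2528 to 3571 CPM in females and 1230 to 1782 CPM in males, and the part of adhering fat body in the yolk protein values was not tested.

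In the sex determination cascade, Sxl and fru were higher in females. Sxl (FBgn0264270, X:7074550-7098053) ran from 741 to 836 CPM in females (median 778) and from 453 to 571 CPM in males (median 482). The sexes did not overlap, and the log2 fold change was -0.65 ± 0.06 (adjusted p 0.000129). fru (FBgn0004652, 3R:18414273-18545586), a transcription factor gene whose transcripts are spliced by sex in neurons, ran from 480 to 583 CPM in females (median 529) and from 301 to 398 CPM in males (median 371). Here too every female library was above every male library, with a log2 fold change of -0.55 ± 0.07 (adjusted p 0.00221). Counts per gene sum all transcripts and do not separate the male and female forms of these genes.

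tra and dsx were not called. tra had 18.7 ± 2.3 CPM in females and 15.2 ± 1.9 CPM in males (SD, n = 6), and its log2 fold change was -0.30 ± 0.08 (adjusted p 0.109). dsx had 21.8 ± 6.2 and 23.9 ± 2.6 CPM, with a log2 fold change of 0.14 ± 0.14. tra2, the partner of tra in splicing, had -0.03 ± 0.07, and the splicing cofactors fl(2)d, vir and nito had -0.01, 0.03 and -0.13. Of 15 measured members of the list, 2 were called. The list's median was -0.06. sc, an X-linked signal of sex in the embryo, had 5.59 CPM in the female library that stood apart and at most 1.10 CPM in any other library, and was not called.

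**Figure D2:**
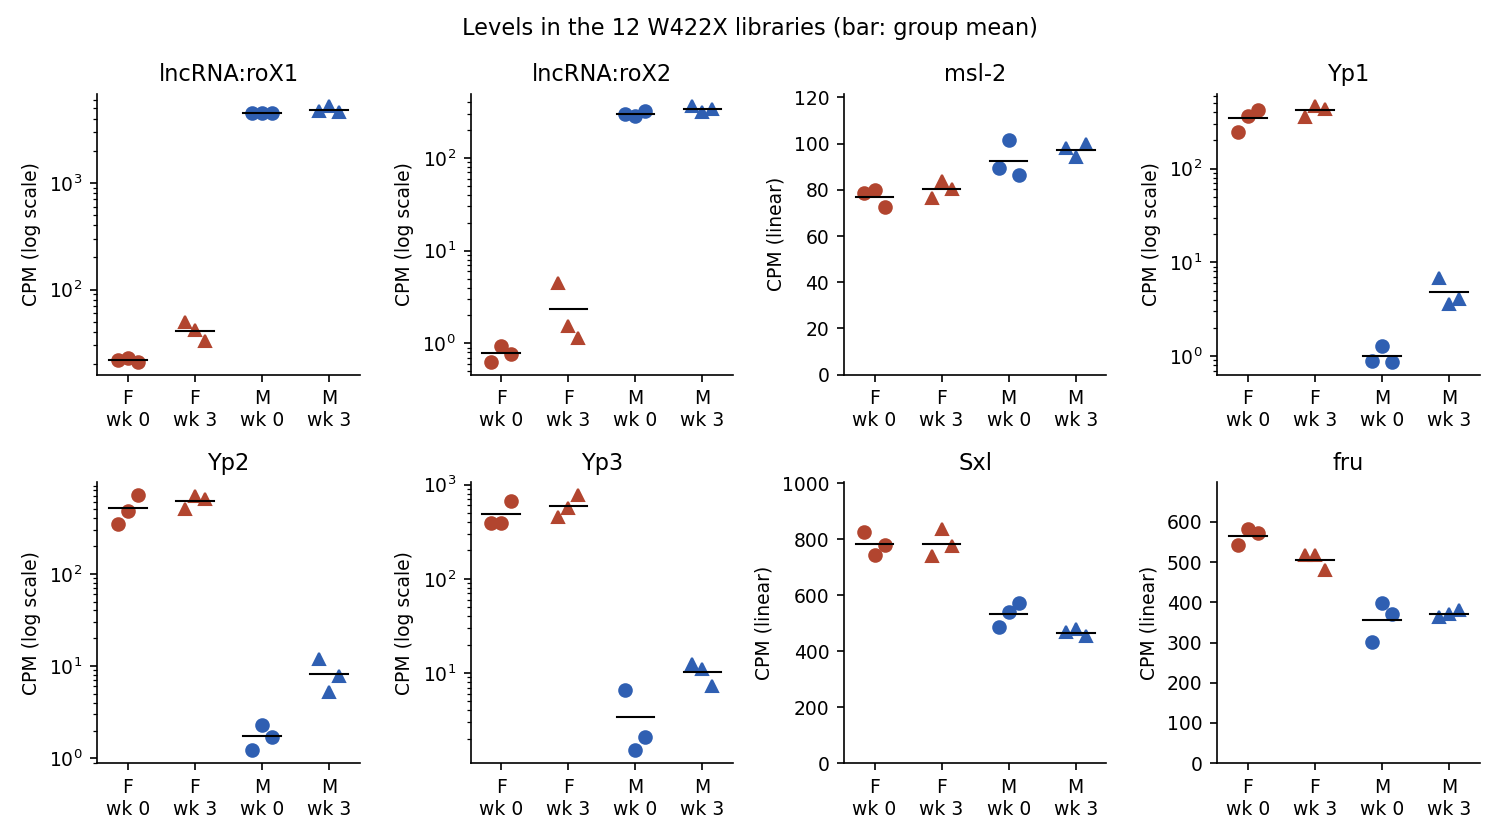
Level of 8 genes in each of the 12 W422X libraries (CPM). Circles are week 0 and triangles week 3 libraries, females are drawn in red and males in blue, and each bar is the mean of 3 libraries. The axis is logarithmic for roX1, roX2 and the yolk protein genes and linear from 0 for msl-2, Sxl and fru. In every panel the 6 female and 6 male points do not overlap.

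Called genes lay mostly on the X. Of 1993 tested X genes 92 were called (4.62%), 37 higher in males and 55 in females. On the autosomal arms 35 of 9974 were called (0.351%), 13 higher in males and 22 in females. Without the library that stood apart the counts were 177 on the X and 66 on the autosomal arms. The X thus held 66.7% of the 138 genes.

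Over all X genes, called or not, the median log2 fold change was -0.10 and the interquartile range ran from -0.45 to 0.06. On the autosomal arms the median was -0.03 and the interquartile range ran from -0.33 to 0.08. Without the library that stood apart the X median was -0.07 with an interquartile range from -0.23 to 0.10, and the autosomal median was 0.00 with an interquartile range from -0.10 to 0.10. The X median was below the autosomal median at week 0 (-0.06 against -0.01) and at week 3 (-0.12 against -0.03). In a fit of all 48 libraries, the X and autosomal medians were -0.05 and 0.02 in W422X, -0.05 and 0.02 in WG2, -0.09 and 0.05 in KO, and -0.08 and 0.03 in Y160C. These medians describe the genes and carry no test.

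**Figure D3:**
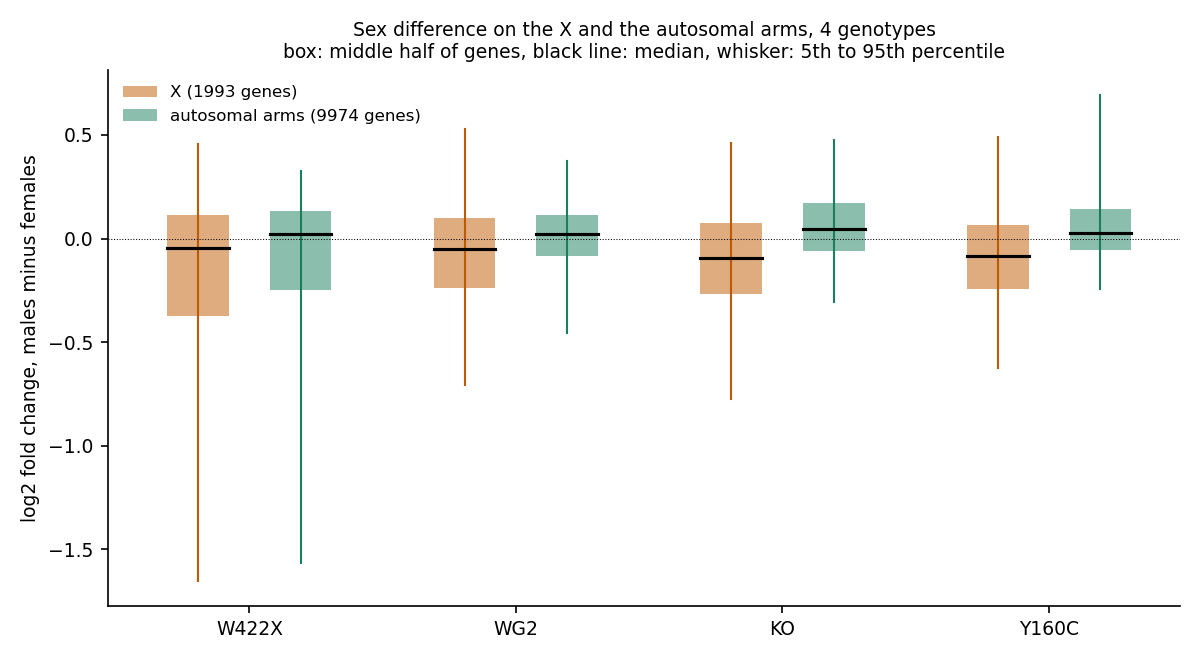
Log2 fold change (males minus females) of 1993 X genes and 9974 genes of the autosomal arms in each genotype, from the fit of all 48 libraries. Boxes span the interquartile range of the genes, black lines are medians and thin lines run from the 5th to the 95th percentile. The X median lies below the autosomal median in all 4 genotypes, and the lower lines reach further down in W422X than in the others.

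The 37 X genes that were higher in males had a median log2 fold change of 0.48. The examples in the following sentences, for both sexes, were in part chosen after their values were seen, since the fixed rule names the largest changes. Abcd3, a peroxisomal transporter gene, ran from 65.3 to 73.3 CPM in females and from 88.9 to 105 CPM in males (log2 fold change 0.44 ± 0.05, adjusted p 0.000545). car, which encodes a subunit of the complex that tethers vesicles to lysosomes, ran from 37.4 to 44.7 and from 47.1 to 56.6 CPM (0.34 ± 0.06, adjusted p 0.0206). Neither gene overlapped between the sexes.

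ssx, a close relative of Sxl, was higher in males (0.37 ± 0.08, adjusted p 0.0345), opposite to Sxl, although its ranges overlapped (227 to 362 CPM in females, 277 to 469 CPM in males). Ork1, a potassium leak channel gene, had a log2 fold change of 0.44 ± 0.08, r, of pyrimidine synthesis, 0.54 ± 0.10, and Dredd, a caspase gene of the Imd immune pathway, 0.48 ± 0.09. ND-B14.5A, a subunit of respiratory complex I, had 0.59 ± 0.12 and lies 48 bases from asRNA:CR45479, a noncoding gene with a log2 fold change of 1.90 ± 0.24 (adjusted p 0.00173). The latter ran from 0.758 to 1.82 CPM in females and from 4.27 to 6.33 CPM in males, with no overlap. Exons of both genes overlap those of Cyp4d14 on the opposite strand. CalpC, a calpain-like gene, had a female median of 3.01 CPM and a male median of 7.70 CPM (1.29 ± 0.22, adjusted p 0.0126). CG2889 was among the most even, at 22.5 to 26.2 CPM in females and 33.9 to 38.9 CPM in males (0.62 ± 0.06, adjusted p 0.000154).

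The remaining male-high X genes that the rule names were of moderate size. CG2124 had a log2 fold change of 0.90 ± 0.13, CG1529 of 0.73 ± 0.13, CG4293 of 0.70 ± 0.08, CG12177 of 0.66 ± 0.12 and the pseudogene CR14798 of 0.66 ± 0.13. CG4293 ran from 11.7 to 15.4 CPM in females and from 21.8 to 23.1 CPM in males, with no overlap. rumpel, a solute transporter gene, ran from 41.3 to 73.8 CPM in females and from 76.8 to 145 CPM in males. The sexes did not overlap, but the call (0.86 ± 0.18, adjusted p 0.0380) was lost in 11 of 20 alternatives, and without the library that stood apart the adjusted p was 0.106. CR14798 was lost in 12 of 20, CG12177 in 5 and CG1529 in 1.

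Among the 55 X genes higher in females, the median log2 fold change was -0.50. Myc, the growth-promoting transcription factor, ran from 72.2 to 125 CPM in females and from 37.1 to 75.1 CPM in males (-0.83 ± 0.08, adjusted p 0.000150). Its ranges over both ages overlapped slightly, and within each age the log2 fold change was -0.98 at week 0 and -0.68 at week 3. N, the Notch receptor gene, had -0.39 ± 0.07 (adjusted p 0.0228). The transcription factor genes ct, bi, sd and ewg had log2 fold changes of -0.37, -0.32, -0.28 and -0.28, with adjusted p-values from 0.0126 to 0.0467. For each of those 4 every female library was above every male library.

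Larger differences were seen in low genes of the X. Ant2, an adenine nucleotide carrier of mitochondria, ran from 8.17 to 10.5 CPM in females and from 3.65 to 4.99 CPM in males (-1.15 ± 0.12, adjusted p 0.000408). CG4020 ran from 3.92 to 9.18 CPM in females and from 0.522 to 1.90 CPM in males (-2.28 ± 0.31, adjusted p 0.00299), and lncRNA:CR45668, which lies 5757 bases away, had -2.27 ± 0.36. Inx7, a gap junction gene, ran from 1.94 to 6.28 and from 0.514 to 1.83 CPM (-1.90 ± 0.39, adjusted p 0.0377), and its neighbour lncRNA:CR43837 had -2.24 ± 0.29. Of these 5 genes none overlapped between the sexes. For CG4020, lncRNA:CR45668, Inx7 and lncRNA:CR43837 the highest value was in the library that stood apart. Without it their log2 fold changes were -2.10, -1.92, -1.51 and -2.0, and all 4 were called. The Inx7 call was lost in 9 of 20 alternatives.

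Further female-high X genes named by the rule were lncRNA:CR32636 (-2.47 ± 0.30), snoRNA:Psi28S-1232 (-1.87 ± 0.30), CG12116 (-1.29 ± 0.17) and CG15322 (-1.21 ± 0.20). All 4 had non-overlapping sexes. For lncRNA:CR32636, snoRNA:Psi28S-1232 and CG15322 the highest value was again in the library that stood apart, and without it they had -2.22, -1.78 and -0.99 and were called. Reads from a snoRNA may also come from the host transcript around it.

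Some called X genes were neighbours. Counting adjacent called genes at most 20 kb apart, a distance chosen after the values were seen, there were 19 pairs that held 34 of the 92 genes, and the count was not tested. In 15 pairs both genes had the same direction and in 4 the directions differed. In 5 pairs the spans of the genes overlapped, among them Nadsyn (-0.35) and Nna1 (0.35), which have opposite signs and share no exons. Nna1 encodes a carboxypeptidase of tubulin and Nadsyn an enzyme of NAD synthesis. The pairs Mybbp1A and Dredd, and CG14431 and Setd3, have exons that overlap on opposite strands. Without the strand setting, reads from such shared exon stretches cannot be told apart. Of the 138 genes, 46 have exons that overlap those of another gene in the table. Ant2, which overlaps sesB on the same strand, is among them, as are CalpC, Cht2, CG2889, CR14798 and Ndg. So are roX1, Yp1, Myc, Abcd3, Uxs, ewg, Nadsyn, CG4293, CG2124, CG6356 and lncRNA:CR45668.

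On the autosomes, the gene with the smallest adjusted p was dl, the NF-kappaB transcription factor of the Toll pathway. dl (FBgn0260632, 2L:17436830-17450364) ran from 33.5 to 51.2 CPM in females (median 37.7) and from 11.3 to 16.5 CPM in males (median 13.3). The lowest female library was about 2-fold above the highest male library, and the log2 fold change was -1.53 ± 0.08 (adjusted p 2.21e-07). Cht2, a chitinase gene on 3L, ran from 14.3 to 19.1 CPM in females and from 0.463 to 1.54 CPM in males (-4.02 ± 0.24, adjusted p 1.26e-06). pyd3, which encodes the last enzyme of pyrimidine breakdown, ran from 23.9 to 29.9 and from 10.7 to 14.7 CPM (-1.10 ± 0.09, adjusted p 5.37e-05). None of the 3 overlapped between the sexes.

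Ndg, the nidogen gene of the basement membrane, ran from 4.83 to 13.7 CPM in females and from 2.46 to 3.89 CPM in males (-1.36 ± 0.25, adjusted p 0.0206), and 13.7 CPM was the value of the library that stood apart. Without it the log2 fold change was -1.05 (adjusted p 0.000412), and the call was lost in 6 of 20 alternatives. Muc68D, a mucin gene, was scattered: its 6 female values were 0.63, 19.9, 11.6, 9.71, 14.1 and 84.2 CPM, and the 6 male values ran from 0.203 to 1.11 CPM. The lowest female library lay within the male range. Its call (-4.93 ± 0.92, adjusted p 0.0273) was lost in 13 of 20 alternatives.

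Among male-high autosomal genes, Idgf3, a secreted growth factor related to chitinases, ran from 15.2 to 30.3 CPM in females and from 25.7 to 56.8 CPM in males (0.89 ± 0.12, adjusted p 0.00270). The ranges overlapped over both ages, and the log2 fold change was 0.87 at week 0 and 0.91 at week 3. CG6356 had 0.98 ± 0.15 (adjusted p 0.00797), CG9649 had 1.05 ± 0.19 (0.0187) and CG18467 had 0.79 ± 0.10 (0.00227). CG9649 lost its call in 5 of 20 alternatives.

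TotA, a stress peptide of the Turandot family, was at 0.32, 0.07 and 0.77 CPM in week 0 females and at 1.16, 0.78 and 0.63 CPM in week 3 females. In males it was at 1.62, 0.75 and 1.21 CPM at week 0 and at 7.26, 7.56 and 5.81 CPM at week 3. The week 3 males stood above all other libraries, while week 0 males and females overlapped. The log2 fold change over both ages was 2.32 ± 0.46 (adjusted p 0.0311), a call lost in 9 of 20 alternatives. Of the 4 measured Turandot genes TotA alone was called in all 12 libraries. TotC was called without the library that stood apart (log2 fold change 4.05, adjusted p 0.00756), at a mean of 0.988 CPM in males and 0.177 CPM in females over all libraries.

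Over all tested genes 1.14% were called. In the haemocyte, glial, photoreceptor, fat body and neuropeptide lists the share ran from 2.70% to 15.4%, from 1 or 2 genes in each list. In the haemocyte list 2 of 13 were called, both higher in females: the prophenoloxidase genes PPO1 (15.3 to 25.2 CPM in females, 6.90 to 14.1 CPM in males; -1.04 ± 0.16, adjusted p 0.00628) and PPO2 (-0.80 ± 0.15, adjusted p 0.0206). Both enzymes belong to crystal cells, a class of blood cell that makes melanin. The haemocyte markers Hml, NimC1 and Pxn were not called. Hml had medians of 101 CPM in females and 68.2 CPM in males and NimC1 of 8.62 and 4.10 CPM, while Pxn had 227 and 276 CPM, Col4a1 458 and 502 CPM, and vkg 382 and 428 CPM. The summed level of the 6 haemocyte markers ran from 694 to 1492 CPM in females and from 721 to 2499 CPM in males, with medians of 1179 and 1295 CPM, and its part in the PPO1 and PPO2 values was not tested. PPO1 did not overlap between the sexes, PPO2 did, and the PPO2 call was lost in 6 of 20 alternatives.

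Of 12 glial genes 1 was called, moody, a receptor gene of the blood-brain barrier (0.43 ± 0.09, adjusted p 0.0339), and 10 of 20 alternatives lost it. The summed level of 6 glial markers ran from 1048 to 2248 CPM in females and from 1939 to 4011 CPM in males, and its part in the moody value was not tested. Gs2 made up much of that sum, with medians of 753 CPM in females and 1131 CPM in males. The medians were 168 and 169 CPM for repo, 440 and 460 CPM for Eaat1, 91.5 and 123.5 CPM for alrm, and 77.9 and 98.9 CPM for wrapper. Of 26 photoreceptor genes norpA, the phospholipase C of phototransduction, was called (0.30 ± 0.05, adjusted p 0.0144). The rhodopsin gene ninaE had medians of 329 CPM in females and 331 CPM in males but ran from 24.3 to 1025 CPM over the libraries. The summed level of 8 photoreceptor markers ran from 174 to 1410 CPM in females and from 94.9 to 877 CPM in males. Its part in the norpA value was not tested. Of 12 fat body genes Apoltp, a lipid transfer particle gene, was called (-0.32 ± 0.05, adjusted p 0.00939), and 2 of 20 alternatives lost it.

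Of 37 neuropeptide and hormone genes Dh31, a diuretic hormone gene, was called and was higher in males (84.2 to 119 CPM in females, 113 to 138 CPM in males; 0.28 ± 0.05, adjusted p 0.0173). Without the library that stood apart 5 were called: Dh31 (0.27), NPFR (0.33), the receptor gene of neuropeptide F, and, higher in females, Orcokinin (-0.44), Dsk (-0.34) and Ms (-0.28). In all 12 libraries the last 3 had log2 fold changes of -0.38, -0.25 and -0.25 and were not called. The norpA call was lost in 6 of 20 alternatives and the Dh31 call in 7.

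No gene was called among the 80 ribosomal protein genes, the 13 genes of the mitochondrial genome, the 11 clock genes, the 16 antimicrobial peptide genes, the 15 heat shock protein genes, the 6 heparan sulfate degradation genes or the 22 monoamine genes. In each of these lists the median log2 fold change lay between -0.13 and 0.14. With 1.14% called over all tested genes, lists of these sizes can hold no call without departing from that share. None was called either among the 8 activity-regulated, 26 detoxification, 15 lysosomal protease and lipid, 4 male head fat body, 17 neuronal, 20 sugar and lipid metabolism and 4 listed Y-linked genes tested, with medians from -0.04 to 0.25. The same held for the 10 male reproductive tract, 16 muscle, 15 odorant-binding protein and 18 ovary genes, whose medians of -0.53, -0.81, -0.76 and -0.72 became 0.04, -0.36, -0.39 and -0.05 without the library that stood apart. Without it 1 male head fat body gene and 1 odorant-binding protein gene were called. Outside the lists, 2 called genes act in making the sugar linker on which heparan sulfate is built, and both were noticed after their values were seen. GlcAT-I, the glucuronyltransferase that completes the linker, ran from 28.1 to 34.9 CPM in females and from 19.6 to 24.3 CPM in males (-0.50 ± 0.07, adjusted p 0.00273). Uxs, which makes the UDP-xylose that starts it, ran from 13.6 to 15.8 and from 16.1 to 19.1 CPM (0.30 ± 0.06, adjusted p 0.0339), and without the library that stood apart its adjusted p was 0.0648. Neither overlapped between the sexes, and their directions were opposite.

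Reads of Y genes were few in both sexes. Over all 113 Y genes they summed to 4.995 to 12.3 CPM in females and 12.1 to 31.8 CPM in males, and the highest female library lay above the lowest male library. The Su(Ste) repeats, noncoding genes of the Y in many near-identical copies, summed to 0 to 1.06 CPM in females and 4.13 to 15.4 CPM in males, and the highest female value was in the library that stood apart. The 85 Y genes other than these and ORY summed to 3.67 to 8.60 CPM in females and 7.37 to 11.4 CPM in males. Of 12 tested genes of the assembled Y 7 were called, all of them Su(Ste) copies and higher in males. A further Su(Ste) copy and the pseudogene Mst77Y-16Psi, both on unplaced sequence, were also called and higher in males. A read can match several copies, so their separate values are uncertain. The Y gene ORY reached 12.4 and 15.4 CPM in week 3 male replicates 1 and 3 but was also at 6.62 CPM in week 0 female replicate 2, and its levels overlapped between the sexes.

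At week 0 alone, 42 genes were called (0.346%), 15 higher in males (0.123%) and 27 in females (0.222%). At week 3 alone 31 were called (0.255%), 6 higher in males (0.0494%) and 25 in females (0.206%). Of the 138 genes, 32 were called at week 0, 25 at week 3 and 17 at both ages. All 138 had the same sign at both ages, which their selection on the difference over these same libraries favours. Leaving out female week 3 replicate 1 gave 223 calls at week 0, where the spread is shared with week 3, and 72 at week 3. At week 0 the count fell to 14, 15 and 19 without female week 0 replicates 3, 1 and 2, to 16 and 17 without male week 0 replicates 3 and 1, and to 26 without male week 3 replicate 1. At week 3 it fell to 10 without male week 3 replicate 1 or 3, to 12 without male week 3 replicate 2, to 14 without female week 3 replicate 2, to 17 without male week 0 replicate 3, and to 20 without female week 0 replicate 2 or 3.

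A single gene, Ilp3 (FBgn0044050, 3L:9801298-9802120), passed the test of the difference between the ages, among 12148 tested (0.00823%). It encodes an insulin-like peptide made by the insulin-producing neurons of the brain. In females it stood at 24.9, 20.3 and 18.03 CPM at week 0 and at 24.8, 38.4 and 37.3 CPM at week 3. In males it stood at 21.3, 16.02 and 13.9 CPM at week 0 and at 2.02, 2.78 and 3.08 CPM at week 3. The 3 old male libraries lay below all others, while the young sexes overlapped. The log2 fold change was -0.30 ± 0.21 at week 0 (adjusted p 0.803) and -3.68 ± 0.24 at week 3 (adjusted p 8.86e-06), and the difference between them was -3.37 ± 0.32 (adjusted p 0.00263). Under the alternatives tried this difference ran from -3.57 to -3.19 with adjusted p-values up to 0.0217.

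Ilp5 and Ilp2, insulin-like genes on the same stretch of 3L, were not called in that test. Ilp5 stood at 17.6, 18.4 and 39.1 CPM in week 3 females and at 6.47, 5.50 and 9.04 CPM in week 3 males, without overlap (log2 fold change -1.84 ± 0.29, adjusted p 0.0282). At week 0 its log2 fold change was 0.08 ± 0.29, and the difference between the ages, -1.92 ± 0.41, did not pass the test (adjusted p 0.541). DESeq2 called it with an adjusted p of 0.0156. Ilp2 had a log2 fold change of 0.27 ± 0.13 at week 0 and -0.37 ± 0.13 at week 3, neither of them called.

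In every genotype the mean level of Ilp3 was lower in males than in females at both ages and lowest in week 3 males, on the scale of the 48 libraries. Males had 8.85 ± 2.25 CPM at week 0 and 2.37 ± 0.94 CPM at week 3 in WG2 (SD, n = 3), 12.01 ± 5.82 and 2.61 ± 0.57 CPM in KO, and 7.55 ± 1.55 and 2.32 ± 0.06 CPM in Y160C. On that scale W422X males had 18.1 ± 3.33 and 2.74 ± 0.56 CPM. Females had means between 20.5 and 33.5 CPM in all 8 genotype and age groups. Over both ages the sex difference of Ilp3 was not called in the fit of the 12 W422X libraries (-1.87 ± 0.58, adjusted p 0.195), whereas the fit of 48 libraries called it (-1.96 ± 0.20, adjusted p 1.30e-08). In the latter fit WG2 had -2.31 ± 0.21, and its difference from W422X, 0.35 ± 0.28, was not called.

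**Figure D4:**
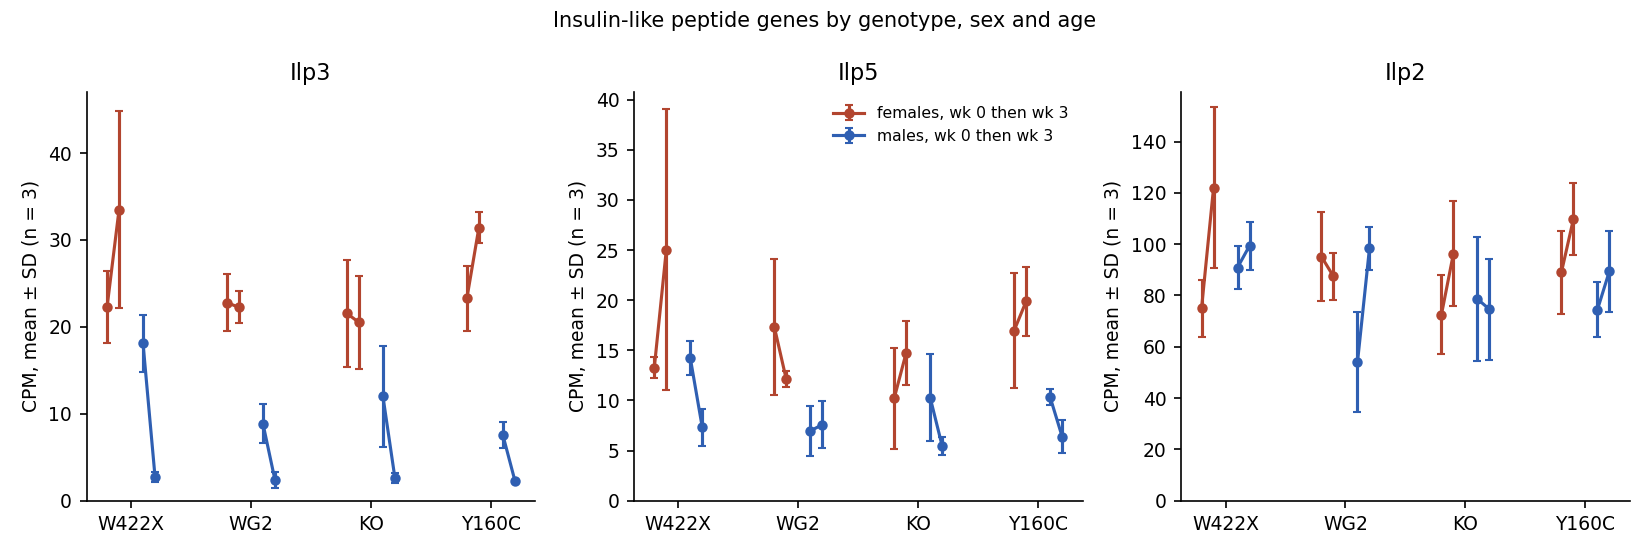
Level of Ilp3, Ilp5 and Ilp2 (CPM of the 48-library scaling, mean ± SD, n = 3 libraries) in the 4 genotypes. Red marks females and blue males, and a line joins week 0 to week 3. Ilp3 lies between 2.32 and 2.74 CPM in week 3 males of every genotype and at 20.5 CPM or more in every female group.

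For roX1 and Yp1 the tools differed on a change with age. roX1 in females was at 21.9, 22.8 and 20.9 CPM at week 0 and at 49.1, 41.5 and 32.6 CPM at week 3, without overlap. Its log2 fold change was 7.68 ± 0.16 at week 0 and 6.88 ± 0.16 at week 3, a difference of -0.80 ± 0.17 that edgeR did not call (adjusted p 0.566) and DESeq2 did (adjusted p 0.00235). Yp1 in males was at 0.88, 1.28 and 0.87 CPM at week 0 and at 6.82, 3.60 and 4.11 CPM at week 3. The male ages did not overlap, and the difference in log2 fold change of 1.99 ± 0.42 was again not called by edgeR (adjusted p 0.541) and called by DESeq2 (adjusted p 0.00129). In this test edgeR gave 598 genes an unadjusted p under 0.05, while DESeq2 called 20 genes.

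The sex difference of W422X was then set against those of the other genotypes, in a fit of all 48 libraries in which no library is shared between genotypes. The fit included the 9 libraries with over 0.4% of counts in usually silent genes. In that fit 246 genes (2.03%; 0.922% higher in males, 1.1% in females) were called in W422X and 153 (1.26%; 0.593% and 0.667%) in WG2. In KO 311 were called (2.56%; 0.848% and 1.71%) and in Y160C 180 (1.48%; 0.65% and 0.831%). Of the 138 genes, 138 had the same sign in WG2, 135 in KO and 137 in Y160C, whereas over all 12148 genes the same sign was seen for 68.9%, 61.4% and 58.3%. In the same direction, 74 of the 138 were called in WG2 (53.6% of the 138 and 48.4% of the WG2 calls), 84 in KO (60.9% and 27.01%) and 84 in Y160C (60.9% and 46.7%). None was called in the other direction. All 3 other genotypes called 60 of the genes, and none of the 3 called 38.

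The values of 5 called genes are given side by side. The log2 fold change of roX1 in this fit was 7.35 in W422X, 7.17 in WG2, 7.46 in KO and 7.05 in Y160C. Yp1 had -7.37, -7.68, -6.06 and -6.75 in the same order, and fit had -4.56, -5.93, -2.89 and -3.60. Sxl had -0.60, -0.67, -0.65 and -0.75, and dl had -1.47, -1.27, -1.15 and -1.22. The 4 genes whose sign differed in one other genotype were Muc68D, Lrpprc2, net and 28SrRNA-Psi:CR45851.

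No gene passed the test of a difference between W422X and WG2 in the sex difference (0%). edgeR gave 309 genes an unadjusted p under 0.05, and DESeq2 also called 0. Over the 138 genes the median size of that difference was 0.11 on the log2 scale, with a median SE of 0.17. Of the 138, 8 (5.80%) had an unadjusted p under 0.05, against 2.54% of all genes. The selection of the 138 on their sex difference in these same W422X libraries favours a larger share. No gene passing the test does not show that the sex differences are equal. For roX1 the difference between W422X and WG2 was 0.18 ± 0.16, for Yp1 0.31 ± 0.63 and for Sxl 0.07 ± 0.14. TotA had a difference of 1.87 ± 0.48 with an unadjusted p of 0.000430 and an adjusted p of 1. Week 3 males had 7.18 ± 1.003 CPM of TotA in W422X, 1.68 ± 0.28 in WG2, 31.7 ± 10.9 in KO and 59.8 ± 25.8 in Y160C (SD, n = 3), while week 3 females had 0.68 to 1.04 CPM in every genotype.

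Against the mean of the other 3 genotypes, no gene was called either (0%). edgeR gave 919 genes an unadjusted p under 0.05 with a smallest adjusted p of 0.643, while DESeq2 called Muc68D and ms(3)76Cc. Muc68D had a difference of -5.57 ± 1.72 by edgeR. Its group means elsewhere ranged from 1.60 ± 1.35 CPM in week 3 WG2 males to 285 ± 486 CPM in week 3 Y160C males, so that within a group the SD could exceed the mean. Cht2 had -1.06 ± 0.34, with log2 fold changes of -4.0 in W422X, -3.43 in WG2, -2.52 in KO and -2.86 in Y160C.

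**Figure D5:**
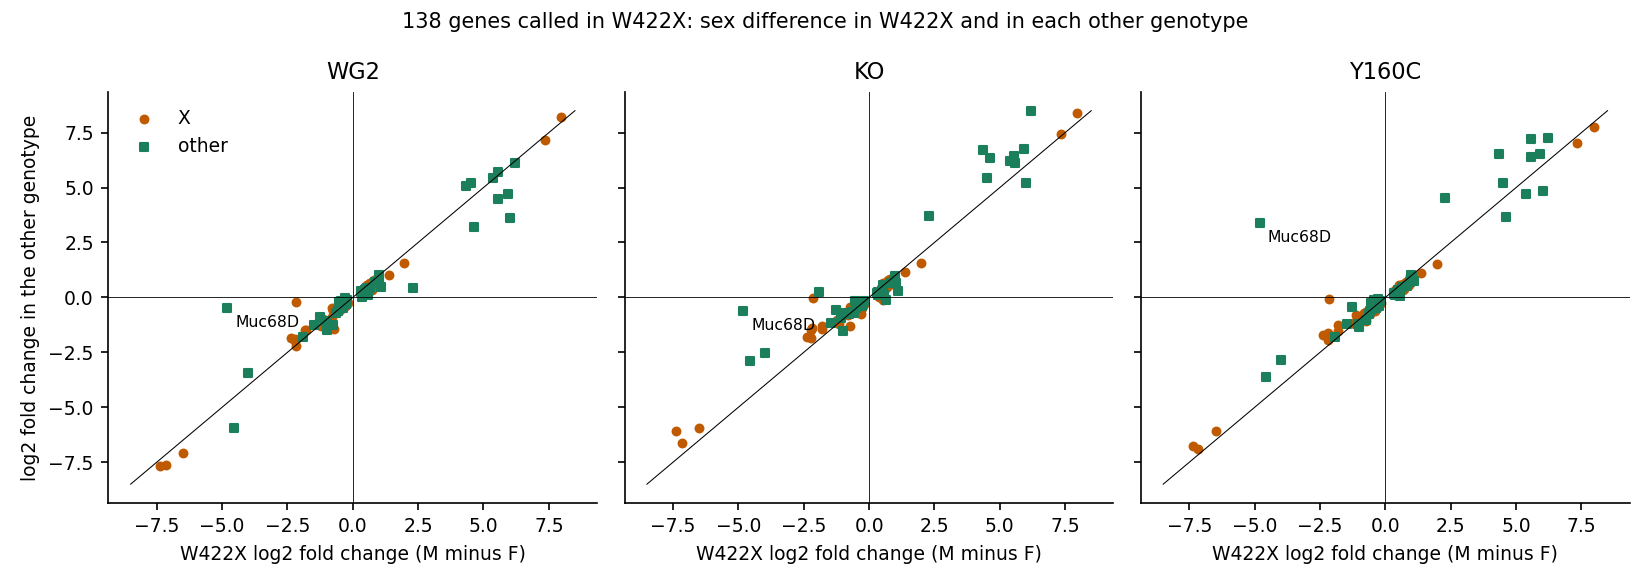
Log2 fold change (males minus females) of the 138 genes in W422X (horizontal axis) and in WG2, KO or Y160C (vertical axis), from the fit of all 48 libraries. Circles are X genes and squares all others, and the diagonal marks equal values. Most points lie near the diagonal, and Muc68D lies at -4.81 in W422X against -0.48, -0.63 and 3.39 in the others.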

How the data were processed

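The authors deposited raw counts of reads per gene, 1 column per library, and the submitters' processing notes name Subread, with no version number. The labels used here do not state the strand setting, the annotation, the genome build or the aligner. Of 17490 gene identifiers 17288 matched a symbol in BDGP6.54, from which positions were taken by identifier, and 0 columns belonged to other samples. No sequences are shown.

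The tests used edgeR 4.0.16 in R 4.3.3. The filterByExpr function, applied over the 4 W422X groups with a minimum count of 10 and a minimum total of 15, kept 12148 genes and removed 5342. TMM factors scaled the libraries, and levels are CPM on the scaled sizes. A quasi-likelihood model (glmQLFit with robust=TRUE) of age and sex was fitted to the 12 libraries (9 residual degrees of freedom). A model of the 4 group means (8 residual degrees of freedom) gave the tests by age and of the difference between ages. A model of 16 group means over 48 libraries gave the comparisons with other genotypes. Called means a Benjamini-Hochberg adjusted p below 0.05. SE was obtained by dividing the log2 fold change by the root of its F statistic. DESeq2 1.42.0 was an alternative. No 2 replicates were the same library: the chi-square per degree of freedom between replicates was 4.01 to 69.6.

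Genes were named by rule: up to 15 called genes at each end with a mean of at least 1 CPM and the same sign at both ages, up to 3 called members of each of 27 lists (532 entries matched, 29 not), Naglu, all members of the dosage compensation, sex determination and yolk lists, and up to 5 called genes of each other test. Members and lists were chosen with earlier results of these data known. Counts were also simulated for the comparison over both ages (12148 genes, 200 changed). Of 100 genes changed by 0.5 on the log2 scale 43% were called, and of 100 changed by 1, 66%. Of 115 calls 6 were wrong. The changed genes were drawn only from genes above a minimum mean count. Each count was drawn independently, so no simulated library stood apart across many genes, and the shares may not hold for the real libraries.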

Additional observations from a re-analysis of the deposited data

Results flagged for a closer look

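In groups of 6 libraries the highest or lowest value was checked for a gap to the others, and 5 of 86 sets passed Dixon's critical value, which chance alone passes in about 1 of 20 sets. The share of counts in usually silent genes was 1.44% in female week 3 replicate 1, far above the other females, and 0.174% in male week 0 replicate 3, above the other males. Ndg stood at 13.7 CPM in the same female library. roX1 stood at 5229 CPM in male week 3 replicate 2, above the other males, and fru at 301 CPM in male week 0 replicate 1, below them. The sex difference of Ilp3 differed between the ages by -3.37 on the log2 scale, by the interaction test. The causes were not tested.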

How the results depend on the processing

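Counts of calls are given as total, then higher in males and in females. Over both ages (138, 60 and 78), leaving out 1 library gave 64 to 255, 23 to 109 and 39 to 146. No filter on low counts gave 79 (40, 39) and moved the median of all genes from -0.04 to -0.14, all 48 libraries in the fit gave 246 (112, 134, with 98 of the 138 kept) and DESeq2 gave 365 (179, 186, all 138 kept). At week 0 (42, 15, 27), leaving out 1 library gave 14 to 223, 3 to 134 and 10 to 89, the 48-library fit 61 (30, 31) and DESeq2 153 (86, 67). At week 3 (31, 6, 25), leaving out 1 library gave 10 to 72, 2 to 29 and 8 to 43, no filter 19 (4, 15), the 48-library fit 89 (32, 57) and DESeq2 157 (42, 115). Leaving out the 3 W422X libraries with over 0.1% of counts in usually silent genes, chosen after seeing the data, gave 84 (41, 43) at week 3, 36 (17, 19) at week 0 and 165 (85, 80, with 98 of the 138 kept) over both ages. The difference between the ages gave 1 to 3 calls when 1 library was left out, 2 in the 48-library fit and 20 by DESeq2. Against the mean of the other genotypes DESeq2 called 2.

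Same-numbered libraries correlated at -0.127 to 0.512 after group means were removed, and differently numbered ones at -0.378 to 0.304. These overlapping ranges do not settle whether the numbers pair the samples. With the replicate number as a block the calls were 146 (85, 61) over both ages, 23 (8, 15) at week 0 and 21 (8, 13) at week 3, which moves the split toward males. The cause was not tested. Naglu, which was never called, turned from -0.02 to 0.0063 with RLE factors, 0.014 without the filter and 0.048 in the 48-library fit, and ran from -0.06 to 0.043 when 1 library was left out. Of the called single genes followed, 15 lost their call in at least 1 alternative.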
